A study of Homo sapiens with 8 samples.

Results

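The genes described here are 42 members of the unfolded protein response and of the amino acid response, out of 58884 genes counted, followed in U87 cells, an established human glioblastoma line. The members were taken from a fixed list of gene symbols and mapped to the Ensembl identifiers of the counts. They comprise 4 sensors and their factors, 24 genes of the ATF4 branch, and 14 targets of ATF6 and XBP1. Total RNA was sequenced after removal of ribosomal RNA from 8 libraries in 4 groups of 2. The groups were cells on long-term AsiDNA that also received 1 µM belinostat for 24 h (the combination), cells given the same belinostat treatment without AsiDNA, cells on long-term AsiDNA alone, and cells given the solvent DMSO. AsiDNA is a short DNA molecule that imitates a double-strand break and decoys repair enzymes, and belinostat inhibits histone deacetylases. The sources used here do not give the dose or duration of AsiDNA. The labels do not say whether the libraries of a group came from separate cultures, so the p-values rest on a spread between samples that may be technical only.

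The endoplasmic reticulum (ER) folds secreted and membrane proteins, and a load of unfolded protein there is sensed by IRE1 (the product of ERN1), PERK (EIF2AK3) and ATF6. IRE1 splices the mRNA of XBP1 into the form that encodes an active factor, and a cleaved fragment of ATF6 enters the nucleus. Both factors act mainly on genes for ER chaperones and for ER-associated degradation. PERK, like the kinases that sense amino acid shortage, haem or viral RNA, phosphorylates eIF2α, which lowers general translation while ATF4 is translated more. ATF4 in turn acts on genes for amino acid synthesis and uptake and on stress factors such as DDIT3 (CHOP). Counts per gene show neither XBP1 splicing nor ATF4 translation nor ATF6 cleavage.

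The promoter stretches below show the response elements known for each branch where the window of a member named by rule held one before the start. Most windows did not. Promoter windows of 300 bases, 250 before to 50 after the start, were available from RefSeq (GRCh38.p14) for 38 of the 42 members. The letters TGATGNAA, the C/EBP-ATF response element, were searched on both strands and occurred in 15.8% of the members' windows, in 25% of the 20 ATF4-branch windows and in 3.62% of 35116 windows of all genes. The ER stress response element, CCAAT and CCACG separated by 9 bases, occurred in 4 of 14 windows of ATF6 and XBP1 targets, in that of XBP1 itself, in 0 of 20 ATF4-branch windows and in 0.0769% of all windows. The letters TGACGTGG, the unfolded protein response element, occurred in 1 member's window, that of HYOU1, and in 0.729% of all windows. Its last 5 letters are the reverse complement of CCACG, so it can overlap the ER stress response element. Matches are descriptions of letters and not of binding. The windows of SLC7A1 and SLC3A2 held the C/EBP-ATF letters in the transcribed part after the start, and these are not shown. Capitals mark the matched letters. The XBP1 stretch is chr22:28800573-28800651 (minus strand) and its match begins 52 bases before the start. That of HSPA5 is chr9:125241361-125241439 (minus strand, 66 bases before the start). That of CRELD2 is chr22:49918524-49918602 (plus strand, 80 bases before the start, the element lying on the other strand). The ASNS stretch is chr7:97872439-97872506 (minus strand, 68 bases before the start). HERPUD1, placed with the ATF6 and XBP1 targets, held the ATF4-type letters at chr16:56931936-56932003 (plus strand, 176 bases before the start, the element on the other strand).
XBP1: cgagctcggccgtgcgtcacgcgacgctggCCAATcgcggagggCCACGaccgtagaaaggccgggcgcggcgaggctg
HSPA5: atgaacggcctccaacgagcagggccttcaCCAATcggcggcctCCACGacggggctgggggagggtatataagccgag
CRELD2: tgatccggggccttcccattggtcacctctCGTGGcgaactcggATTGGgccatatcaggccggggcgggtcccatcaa
ASNS: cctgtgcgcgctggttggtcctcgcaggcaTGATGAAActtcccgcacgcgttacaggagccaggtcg
HERPUD1: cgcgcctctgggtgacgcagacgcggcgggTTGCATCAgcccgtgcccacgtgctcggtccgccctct

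Library depth was 6057394 to 9699637 counts. Levels are in CPM, counts scaled to a common library size with TMM factors, and 3 counts equalled 0.292 to 0.508 CPM. All 42 members passed the filter on low counts, among 14741 genes tested, and together they took 0.789% to 1.12% of a library's counts. The DMSO replicates stood apart from each other: 11.1% of 8142 well-covered genes differed by over 1.5-fold between them, against 0.540% in the combination, 0.786% in belinostat and 0.184% in AsiDNA. Of 34 well-covered members, 4 differed by more than this between the DMSO replicates, a share near that of all genes. The nuclear RNAs MALAT1 and NEAT1 took 2.06% and 3.12% of counts in the combination, 12.2% and 13.4% in belinostat, 0.688% and 0.753% in AsiDNA, and 0.911% and 2.81% in DMSO, and the part of this in the members' values was not tested. The glioma and mesenchymal marker list, of which 5 of 8 genes passed the filter, summed to 7103 to 7152 CPM in the combination, 3438 to 3502 CPM in belinostat, 8339 to 8369 CPM in AsiDNA and 5545 to 8214 CPM in DMSO. VIM carried most of this sum, with 3848 and 4123 CPM in the combination, 1478 and 1372 CPM in belinostat, 5888 and 5973 CPM in AsiDNA, and 5520 and 3488 CPM in DMSO. NES went the other way, with 56.6 and 54.9 CPM in the combination, 38.5 and 26.3 CPM in belinostat, 7.37 and 6.11 CPM in AsiDNA, and 4.95 and 5.75 CPM in DMSO. CD44 lay between 1422 and 2523 CPM in all libraries. SOX2 was at 0 counts and GFAP and S100B did not pass the filter. Leukocyte markers summed to at most 3.71 CPM and epithelial markers to at most 1.35 CPM, and 3 of the 5 leukocyte markers were at 0. Endothelial markers summed to 13.5 to 16.5 CPM in the combination, 19.5 to 23.6 CPM in belinostat, 3.74 to 6.11 CPM in AsiDNA and 5.15 to 5.17 CPM in DMSO, with CDH5 at 0.

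Per kilobase of exon, the levels in DMSO cells ran from 0.731 CPM per kb for ASNS, which makes asparagine, to 495 CPM per kb for HSP90B1, the ER form of HSP90. CALR, a calcium-binding lectin chaperone, stood next to it at 466 CPM per kb. ATF4 was at 68.7 CPM per kb and XBP1 at 32.0 CPM per kb, well above the sensors ATF6 (12.6), EIF2AK3 (10.2) and ERN1 (2.35 CPM per kb). The lowest 4 members per kilobase were all in the ATF4 branch: ASNS, CHAC1 (0.826), PCK2 (1.04) and NUPR1 (1.12 CPM per kb).

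**Figure D1:**
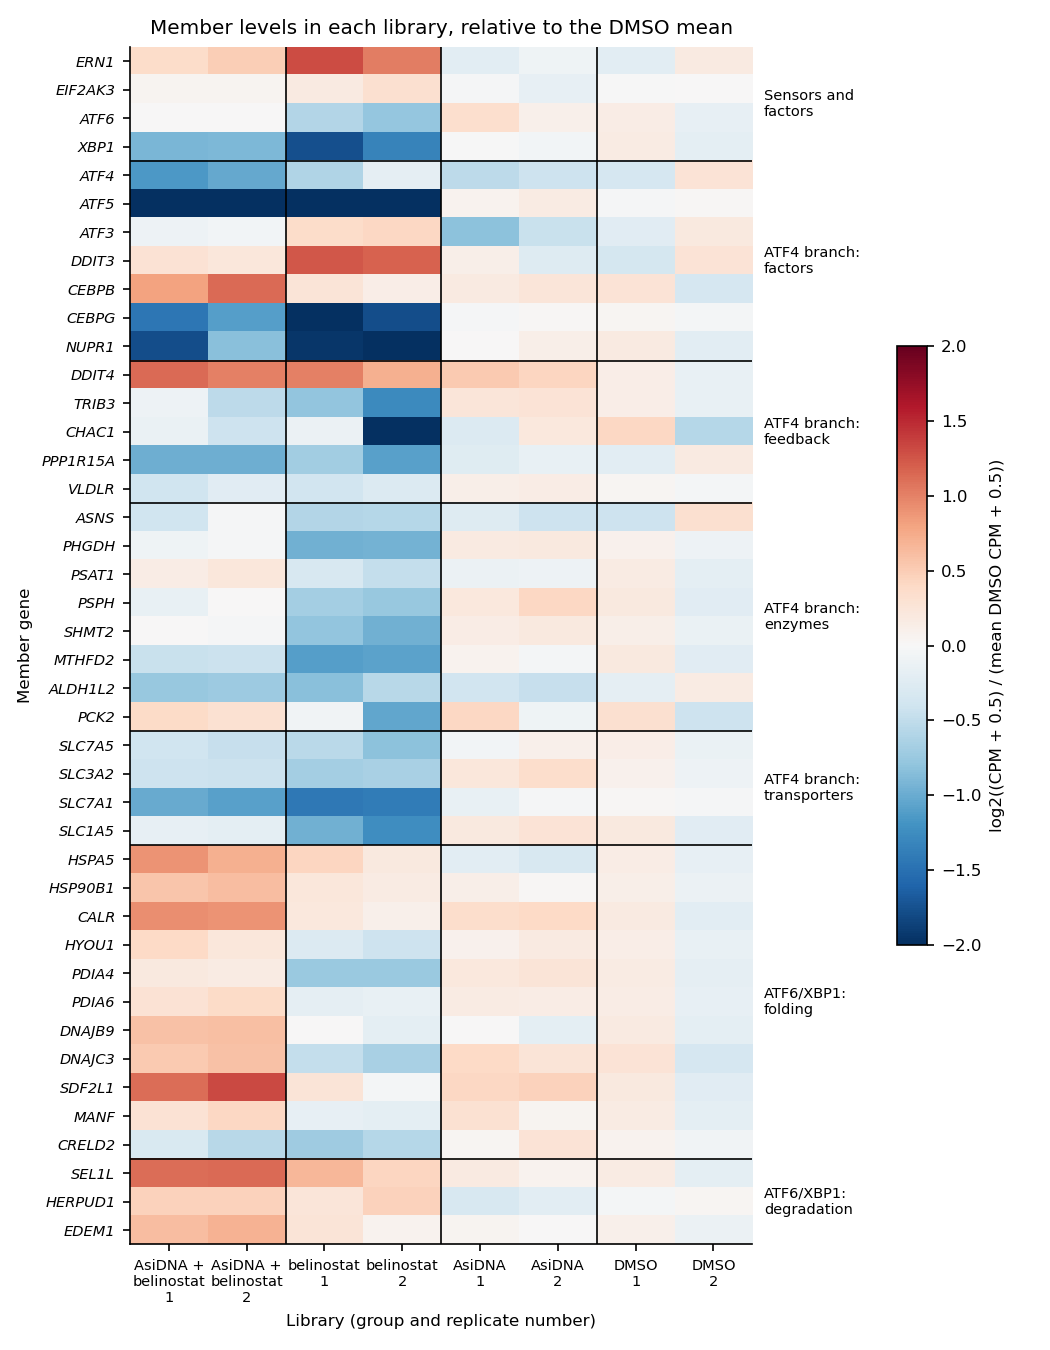
Each row is a member gene and each column a library, and the colour gives log2((CPM + 0.5) / (mean DMSO CPM + 0.5)), limited to 2 in either direction. ATF5, NUPR1 and CEBPG are lowest in the 4 libraries with belinostat, while ER chaperone and degradation genes such as HSPA5 and SEL1L are highest in the combination.

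Belinostat against DMSO asks what the inhibitor does in cells without AsiDNA. The ATF4 branch fell and ER chaperones as a group did not rise: 16 of 24 ATF4-branch genes fell and 2 rose, while of 14 ATF6 and XBP1 targets 4 fell and 2 rose. The median log2 fold change was -0.73 in the ATF4 branch and 0.03 in the ATF6 and XBP1 targets, against 0.06 over all tested genes. In all, 22 of 42 members fell and 5 rose (edgeR quasi-likelihood test, adjusted p under 0.05), where 27.6% of all tested genes fell and 29.8% rose. The 5 that rose, ERN1, DDIT3, DDIT4, SEL1L and HERPUD1, are thus a smaller share than among all genes, and the 22 that fell a larger one.

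Among the sensors, ERN1 and XBP1 moved in opposite directions. ERN1, which encodes IRE1, had 64.1 and 52.3 CPM with belinostat, against 22.02 and 29.1 CPM in DMSO (log2 fold change 1.19 ± 0.16, adjusted p = 4.28e-05). XBP1, the transcript that IRE1 splices, had 28.2 and 37.9 CPM with belinostat, against 108.8 and 85.0 CPM in DMSO (-1.56 ± 0.16, adjusted p = 3.70e-06). The libraries of the groups did not overlap for either gene. With 2 libraries a group such separation only describes these libraries, here and below, and its share over all tested genes was not computed. ATF6 fell as well, with 65.8 and 58.3 CPM with belinostat against 110.5 and 88.6 CPM in DMSO (-0.68 ± 0.14, adjusted p = 0.00114). EIF2AK3, the PERK gene, had 63.2 and 69.6 CPM with belinostat against 55.5 and 55.8 CPM in DMSO and did not pass the test (0.25 ± 0.12, adjusted p = 0.0961).

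The transcription factors of the ATF4 branch split. ATF5, a factor closely related to ATF4, had 2.46 and 1.35 CPM with belinostat, against 14.4 and 14.9 CPM in DMSO (-2.88 ± 0.29, adjusted p = 2.63e-06). NUPR1, a small stress-induced nuclear protein, had 1.29 and 1.02 CPM with belinostat against 7.27 and 5.46 CPM in DMSO (-2.42 ± 0.41, adjusted p = 0.000239). CEBPG, a dimer partner of ATF4, had 12.1 and 16.8 CPM with belinostat against 60.0 and 56.7 CPM in DMSO (-2.03 ± 0.18, adjusted p = 7.55e-07). All 3 were lower in both belinostat libraries than in either DMSO library. DDIT3, which encodes the pro-apoptotic factor CHOP, went the other way, with 33.2 and 31.8 CPM with belinostat against 10.7 and 16.8 CPM in DMSO (1.24 ± 0.21, adjusted p = 0.000211). ATF4 itself had 113.7 and 152.4 CPM with belinostat against 137.4 and 207.9 CPM in DMSO, and these overlapped (-0.38 ± 0.18, adjusted p = 0.0895). ATF4 passed as lower in 7 alternatives: without DMSO replicate 1, without belinostat replicate 2, with library size only, without the 10 most abundant genes, with no filter, at 1 CPM in 2 libraries and with a replicate block. ATF3 (0.39 ± 0.17) and CEBPB (0.20 ± 0.18) did not pass the test, but ATF3 passed as higher without DMSO replicate 2 and with a replicate block. ATF5 shares 626 exon bases with NUP62 on the other strand, and DDIT3 shares 355 with MARS1. The partner's counts came to 532% of those of ATF5 and 483% of those of DDIT3, and the sources used here do not give the strand setting of the counting, so both values are uncertain. The same holds for DNAJB9, whose opposite-strand partners PNPLA8 and THAP5 had 295% and 181% of its counts, and for ALDH1L2, whose partner NOPCHAP1 had 115%.

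Among the signalling and feedback targets, DDIT4 rose while 3 others fell. DDIT4 (REDD1), an inhibitor of mTORC1, had 554.1 and 450.8 CPM with belinostat, against 303.7 and 247.4 CPM in DMSO (0.87 ± 0.14, adjusted p = 0.000176). TRIB3, a pseudokinase that restrains ATF4 signalling, had 3.75 and 2.54 CPM with belinostat against 7.58 and 6.14 CPM in DMSO (-1.09 ± 0.30, adjusted p = 0.00712). PPP1R15A (GADD34), which directs a phosphatase to eIF2α, had 49.4 and 37.8 CPM with belinostat against 69.8 and 91.6 CPM in DMSO (-0.88 ± 0.16, adjusted p = 0.000411). None of these genes overlapped between the groups. VLDLR, a lipoprotein receptor, fell by less (-0.33 ± 0.12, adjusted p = 0.0346). CHAC1, a glutathione-degrading enzyme, had 0 counts in 1 belinostat library and at most 2.42 CPM in any library. It did not pass (-0.96 ± 0.79), but did as lower without DMSO replicate 2 or belinostat replicate 1.

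The enzymes of amino acid and one-carbon metabolism fell together: 6 of 8 fell and 0 rose, with a median of -0.73. MTHFD2, a mitochondrial folate enzyme, had 75.6 and 77.4 CPM with belinostat, against 186.3 and 138.5 CPM in DMSO (-1.09 ± 0.14, adjusted p = 2.78e-05). PHGDH, the first enzyme of serine synthesis, had 37.3 and 37.6 CPM with belinostat against 77.7 and 68.2 CPM in DMSO (-0.96 ± 0.13, adjusted p = 2.87e-05). SHMT2, which makes glycine from serine in mitochondria, had 52.3 and 46.4 CPM with belinostat against 98.6 and 82.6 CPM in DMSO (-0.87 ± 0.13, adjusted p = 9.21e-05). The groups did not overlap for these 3. PSPH and PSAT1, the remaining enzymes of serine synthesis, and ALDH1L2, a folate dehydrogenase, also fell, by 0.75, 0.40 and 0.72 on the log2 scale, each with libraries that did not overlap. ASNS had 1.99 and 2.03 CPM with belinostat against 2.32 and 4.19 CPM in DMSO and did not pass (-0.69 ± 0.42, adjusted p = 0.17). It shares 1985 exon bases with another gene model on its own strand, whose counts came to 29.7% of its own. PCK2 did not pass either (-0.48 ± 0.41). ASNS passed as lower without DMSO replicate 1, and PCK2 without DMSO replicate 2.

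All 4 amino acid transporters fell. SLC7A1, which carries arginine and lysine, had 53.1 and 54.2 CPM with belinostat, against 145.2 and 141.9 CPM in DMSO (-1.42 ± 0.12, adjusted p = 6.30e-07). SLC1A5, a glutamine carrier, had 74.0 and 61.1 CPM with belinostat against 166.0 and 124.7 CPM in DMSO (-1.10 ± 0.15, adjusted p = 3.81e-05). SLC7A5 and SLC3A2, which together form the leucine transporter LAT1-4F2hc, each fell by 0.67 (± 0.14 and 0.12). In each of the 4 genes both belinostat libraries lay below both DMSO libraries.

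Of the 11 chaperone and folding genes 4 fell and 0 rose, whereas 2 of 3 degradation genes rose. PDIA4, a protein disulfide isomerase, had 389.5 and 387.8 CPM with belinostat, against 729.5 and 571.1 CPM in DMSO (-0.74 ± 0.13, adjusted p = 0.00037). CRELD2, DNAJC3 and HYOU1 also fell, by 0.65, 0.55 and 0.35 on the log2 scale. HSPA5, the chaperone BiP, had 791.5 and 674.9 CPM with belinostat against 648.2 and 524.7 CPM in DMSO, without overlap, and did not pass (0.32 ± 0.14, adjusted p = 0.0676). SEL1L, an adaptor of the ER ubiquitin ligase HRD1, had 389.0 and 330.6 CPM with belinostat against 275.3 and 214.7 CPM in DMSO (0.56 ± 0.14, adjusted p = 0.00412). HERPUD1, another component of that machinery, had 72.7 and 85.0 CPM with belinostat against 59.9 and 63.3 CPM in DMSO (0.35 ± 0.13, adjusted p = 0.0286). This call was lost with library size only, without the 10 most abundant genes, with DESeq2, with no filter and at 1 CPM in 2 libraries. It was also lost with only the groups compared and without either belinostat library. EDEM1, a lectin that delivers misfolded glycoproteins for degradation, did not pass (0.17 ± 0.12). Without DMSO replicate 1, CALR, CEBPB, EDEM1, HSP90B1 and HSPA5 also passed as higher, and DNAJC3, HYOU1 and PSAT1 no longer passed. Without belinostat replicate 1 the rises of SEL1L and HERPUD1 and the fall of VLDLR were lost. Without belinostat replicate 2 the calls of DNAJC3, HERPUD1, HYOU1 and PSAT1 were lost. Without DMSO replicate 2, MANF and PDIA6 also passed as lower.

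**Figure D2:**
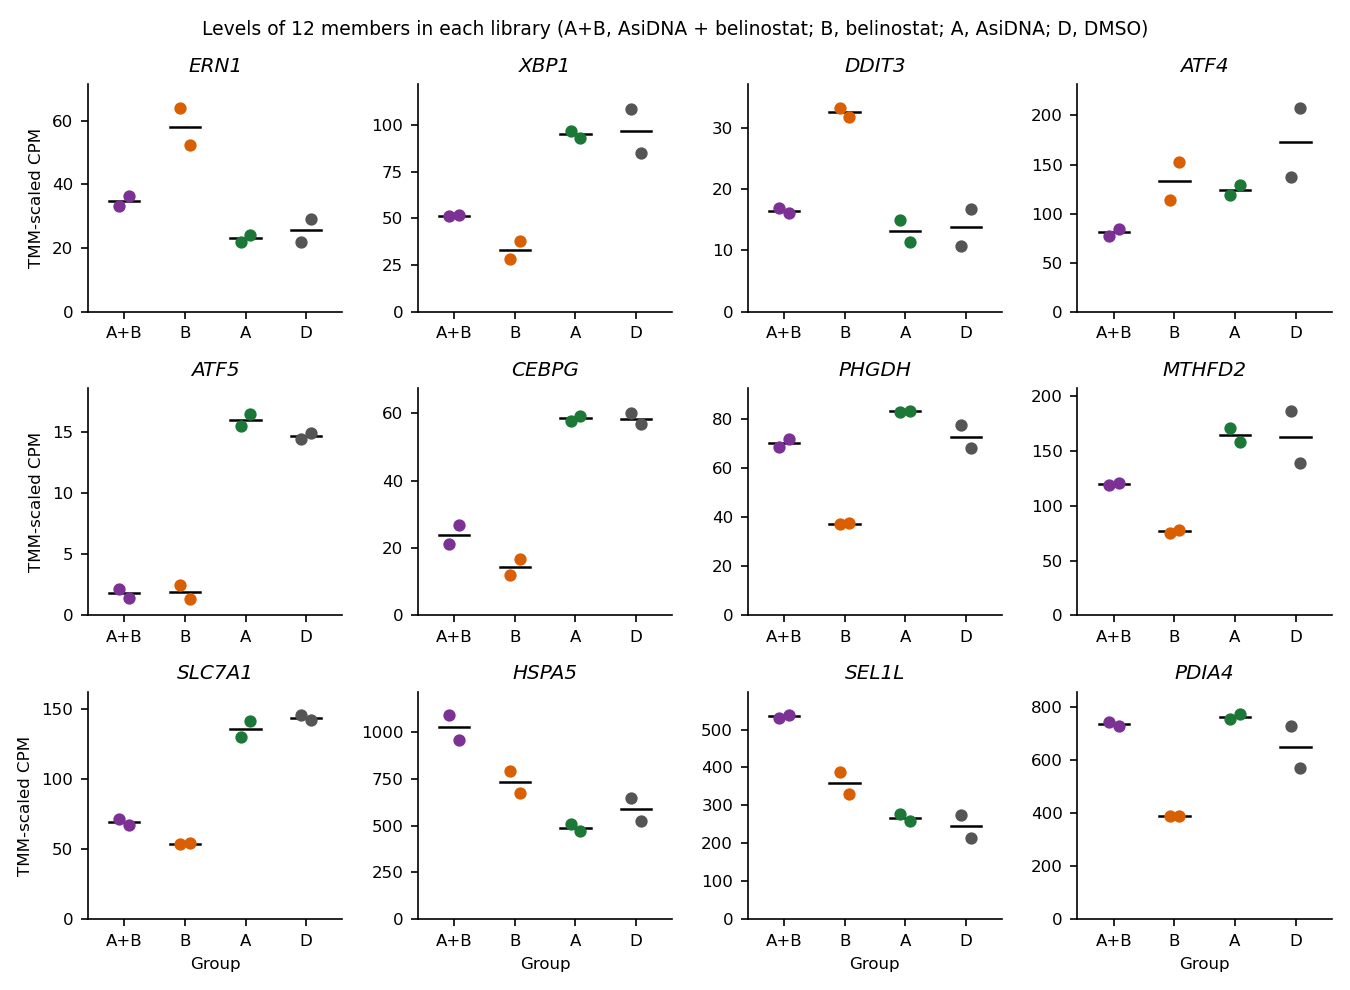
Dots are TMM-scaled CPM of single libraries (y axes start at 0) and lines are group means, for 12 members in the combination (A+B), belinostat (B), AsiDNA (A) and DMSO (D). ATF5 and CEBPG are low in both belinostat-treated groups, while PHGDH and PDIA4 are low in belinostat and close to the AsiDNA and DMSO levels in the combination.

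Set against AsiDNA alone, the combination shows the belinostat effect in cells on long-term AsiDNA. Here 13 of 42 members fell, where 21.2% of all tested genes did, and 12 rose, where 21.7% did. In the ATF4 branch 11 fell and 3 rose (median -0.40), and among the ATF6 and XBP1 targets 8 rose and 1 fell (median 0.53, against 0.02 over all genes). Of the 22 members that fell against DMSO, 12 also fell here and 10 did not pass. Of the 5 that rose, 4 rose here too, and no member was called in opposite directions. The matching shares over all tested genes were not computed, so these overlaps are not a result about the members alone.

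ATF5 was the member with the largest fall in this background as well, with 2.17 and 1.41 CPM in the combination against 15.5 and 16.4 CPM in AsiDNA (-3.18 ± 0.30, adjusted p = 3.04e-06). CEBPG had 21.0 and 26.9 CPM in the combination against 57.6 and 59.2 CPM in AsiDNA (-1.28 ± 0.17, adjusted p = 4.52e-05). XBP1 had 51.2 and 51.9 CPM in the combination against 96.8 and 93.3 CPM in AsiDNA (-0.88 ± 0.16, adjusted p = 0.00056). None of these overlapped. NUPR1 fell (-1.42 ± 0.37, adjusted p = 0.00741), and so did ATF4, with 77.3 and 84.4 CPM in the combination against 119.4 and 128.9 CPM in AsiDNA (-0.62 ± 0.19, adjusted p = 0.0163). DDIT3 did not pass, with 16.9 and 16.1 CPM in the combination against 15.0 and 11.3 CPM in AsiDNA (0.32 ± 0.22, adjusted p = 0.28). CEBPB, a C/EBP factor, had 148.5 and 186.4 CPM in the combination against 95.8 and 100.3 CPM in AsiDNA (0.77 ± 0.18, adjusted p = 0.00307), and ATF3 rose by 0.55 ± 0.18. ERN1 had 33.2 and 36.2 CPM in the combination against 21.98 and 24.2 CPM in AsiDNA (0.59 ± 0.17, adjusted p = 0.0133).

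Of the 8 enzymes, 1 fell in this background. This was MTHFD2, with 118.8 and 120.9 CPM in the combination against 170.5 and 158.3 CPM in AsiDNA (-0.46 ± 0.14, adjusted p = 0.0182). PHGDH had 68.6 and 72.0 CPM in the combination against 83.0 and 83.5 CPM in AsiDNA and did not pass (-0.24 ± 0.12, adjusted p = 0.129), nor did SHMT2 (-0.19 ± 0.13, adjusted p = 0.263) or PSPH (-0.38 ± 0.20, adjusted p = 0.146). These 3 enzymes also passed as lower, making 4 of 8, in a fit of only the groups compared and with scaling by library size alone. Of all genes in those fits 31.3% and 26.9% fell. PSAT1 passed as higher in the fit of only the groups compared, where 31.9% of all genes rose. All 4 transporters fell, led by SLC7A1 with 71.2 and 67.1 CPM in the combination against 129.8 and 141.3 CPM in AsiDNA (-0.97 ± 0.12, adjusted p = 2.57e-05). Of the feedback genes, DDIT4 rose (0.60 ± 0.14) and PPP1R15A (-0.79 ± 0.16) and VLDLR (-0.44 ± 0.12) fell, while TRIB3 did not pass (-0.62 ± 0.28, adjusted p = 0.0961). TRIB3 did pass as lower with only the groups compared and with scaling by library size alone.

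BiP and the degradation genes rose most clearly. HSPA5 had 1093 and 957 CPM in the combination, against 506 and 470.1 CPM in AsiDNA (1.07 ± 0.14, adjusted p = 5.50e-05). SEL1L had 531 and 539 CPM in the combination against 277 and 258 CPM in AsiDNA (1.00 ± 0.14, adjusted p = 8.06e-05). HERPUD1 had 85.3 and 85.0 CPM in the combination against 49.0 and 53.3 CPM in AsiDNA (0.74 ± 0.13, adjusted p = 0.000475). All 3 lay wholly above AsiDNA. SDF2L1, an ER co-chaperone, rose by 0.83 ± 0.22, DNAJB9 by 0.69 ± 0.19, EDEM1 by 0.63 ± 0.12, CALR by 0.54 ± 0.14 and HSP90B1 by 0.52 ± 0.14. CRELD2, a cysteine-rich ER protein whose promoter stretch holds the ER stress response element, was the exception, with 26.7 and 22.4 CPM in the combination against 34.0 and 40.3 CPM in AsiDNA (-0.60 ± 0.16, adjusted p = 0.00799). PDIA4 had 743 and 729.5 CPM in the combination against 755 and 775 CPM in AsiDNA (-0.05 ± 0.13, adjusted p = 0.774). The calls of ATF5, CEBPG, XBP1, SLC7A1, HSPA5, SEL1L and HERPUD1 held in each fit that left out 1 of the 4 libraries. ATF4, MTHFD2, SLC1A5 and SLC7A5 passed in none of them, and the calls of ATF3, CALR, CEBPB, CRELD2, DDIT4, DNAJB9, ERN1, HSP90B1, NUPR1, SDF2L1 and VLDLR were lost in at least 1. With scaling by library size alone 10 members rose and 18 fell, where 17.4% of all tested genes rose and 26.9% fell.

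**Figure D3:**
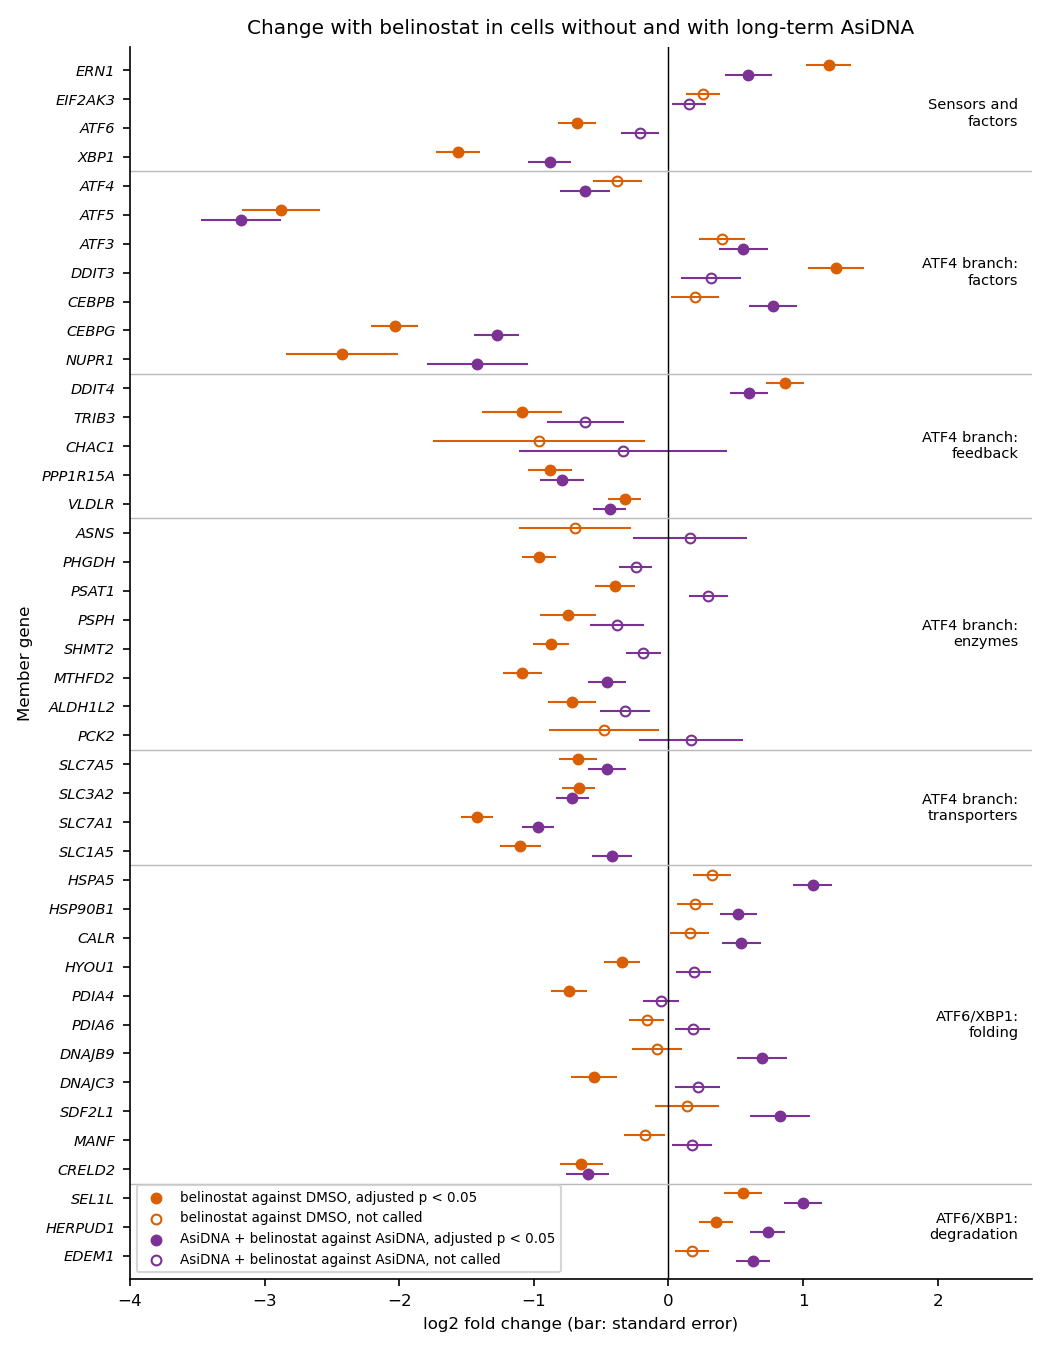
Points are log2 fold changes with standard errors for belinostat against DMSO and for the combination against AsiDNA, 1 row per member. ATF5 lies near -3 in both, at -3.18 in AsiDNA cells and -2.88 without AsiDNA, while PHGDH, SHMT2 and PDIA4 lie nearer 0 in AsiDNA cells than without AsiDNA.

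The combination against belinostat alone compares AsiDNA cells with cells lacking it when both had received belinostat. Rises outnumbered falls among the members: 23 of 42 members rose and 4 fell, where 22% of all tested genes rose and 21.4% fell. Of the 14 ATF6 and XBP1 targets 12 rose and 0 fell (median 0.55), and of the 24 ATF4-branch genes 9 rose and 3 fell (median 0.53), against -0.01 over all genes. The 4 that fell were ERN1, ATF4, ATF3 and DDIT3. This comparison uses the same belinostat libraries as that of belinostat against DMSO, so a member low in those libraries tends to appear as lower there and higher here.

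DNAJC3, a co-chaperone and inhibitor of PERK, had 283.8 and 295.3 CPM in the combination, against 142.5 and 126.3 CPM with belinostat (1.11 ± 0.17, adjusted p = 0.000538). PDIA4 had 743 and 729.5 CPM in the combination against 389.5 and 387.8 CPM with belinostat (0.92 ± 0.13, adjusted p = 0.00044). SDF2L1 had 16.2 and 18.7 CPM in the combination against 8.68 and 6.94 CPM with belinostat (1.15 ± 0.23, adjusted p = 0.00182). The groups did not overlap for these 3, nor for HSPA5, which rose by 0.48 ± 0.14 (adjusted p = 0.0153). Between the groups CRELD2 (0.21 ± 0.17) and HERPUD1 (0.11 ± 0.13) were the ATF6 and XBP1 targets that did not pass.

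Among the enzymes 5 of 8 rose, and PHGDH had 68.6 and 72.0 CPM in the combination against 37.3 and 37.6 CPM with belinostat (0.91 ± 0.13, adjusted p = 0.000413). SHMT2 rose by 0.86 ± 0.13, PSPH by 0.68 ± 0.22, MTHFD2 by 0.65 ± 0.14 and PSAT1 by 0.59 ± 0.15. SLC1A5 had 129.8 and 126.3 CPM in the combination against 74.0 and 61.1 CPM with belinostat (0.92 ± 0.15, adjusted p = 0.000714), and SLC7A1 rose by 0.37 ± 0.12. SLC7A5 and SLC3A2 did not pass (0.24 each). Serine-synthesis and glutamine-uptake genes were thus among those higher in the combination.

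The stress factor DDIT3 had 16.9 and 16.1 CPM in the combination, against 33.2 and 31.8 CPM with belinostat (-0.98 ± 0.21, adjusted p = 0.00286). ERN1 had 33.2 and 36.2 CPM in the combination against 64.1 and 52.3 CPM with belinostat (-0.75 ± 0.16, adjusted p = 0.00324). ATF4 had 77.3 and 84.4 CPM in the combination against 113.7 and 152.4 CPM with belinostat (-0.71 ± 0.19, adjusted p = 0.00829). All 3 lay wholly below belinostat, whereas XBP1 (0.65 ± 0.17), ATF6 (0.69 ± 0.14), CEBPG (0.76 ± 0.19) and CEBPB (0.78 ± 0.18) were higher. Among the falls, ATF3 was lost in each fit that left out 1 of the 4 libraries. ATF4 was lost without either combination library or belinostat replicate 2, and ERN1 without combination replicate 1 or belinostat replicate 1. Of the rises, SLC7A1 was lost in each of these fits, and PSPH in all but the fit without combination replicate 1. HSP90B1 was lost in all but the fit without belinostat replicate 1, and HSPA5 without combination replicate 1 or belinostat replicate 2. MANF was lost without combination replicate 2 or belinostat replicate 2, and DNAJB9 without belinostat replicate 2. CEBPG was lost without combination replicate 2 or belinostat replicate 1, and XBP1 without belinostat replicate 1.

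**Figure D4:**
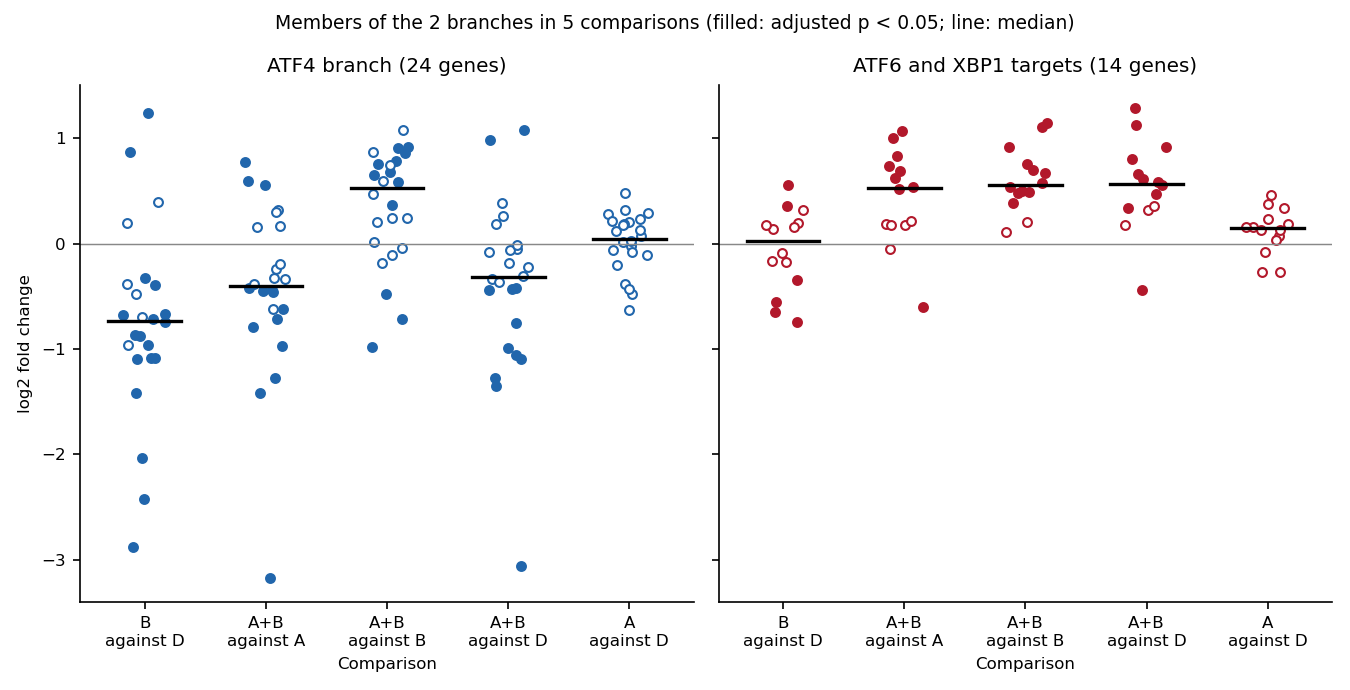
Dots are log2 fold changes of members in 5 comparisons, filled where the adjusted p was under 0.05, with a line at the median (A+B, combination; B, belinostat; A, AsiDNA; D, DMSO). The ATF4 branch (left) has its median at -0.73 for belinostat against DMSO and 0.53 for the combination against belinostat, where the ATF6 and XBP1 targets lie at 0.03 and 0.55.

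AsiDNA against DMSO asks what long-term AsiDNA does without belinostat, and 0 of 42 members rose or fell. Of all tested genes 0% rose and 0.0204% fell, and at an unadjusted p under 0.05 there were 6 members and 1674 genes. DESeq2 called 0 members, where it called 0.0543% of all tested genes higher and 0.17% lower. The largest differences were in ATF3, with 17.7 and 23.3 CPM in AsiDNA against 27.1 and 36.4 CPM in DMSO (-0.63 ± 0.18, adjusted p = 0.32), and in ATF4, with 119.4 and 128.9 CPM in AsiDNA against 137.4 and 207.9 CPM in DMSO (-0.48 ± 0.18, adjusted p = 0.388). Both AsiDNA libraries lay below both DMSO libraries for these genes. DDIT4 had 395.3 and 371.1 CPM in AsiDNA against 303.7 and 247.4 CPM in DMSO (0.48 ± 0.14, adjusted p = 0.339). PHGDH had 83.0 and 83.5 CPM in AsiDNA against 77.7 and 68.2 CPM in DMSO (0.19 ± 0.12, adjusted p = 0.528). The fitted log2 changes were 0.00 ± 0.16 for CEBPG, 0.02 ± 0.14 for SLC7A5 and -0.03 ± 0.15 for XBP1. The counts of calls turned on the DMSO libraries. Without DMSO replicate 1, 17 members rose and 4 fell, where 18.3% of all genes in that fit rose and 13.3% fell. Without DMSO replicate 2, 0 rose and 1, HSPA5, fell, where 0.097% of all genes rose and 0.304% fell.

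The combination against DMSO takes both agents together. In the ER genes the rises outnumbered the falls: 10 of 14 ATF6 and XBP1 targets rose and 1 fell (median 0.57), while in the ATF4 branch 10 of 24 fell and 2 rose (median -0.32, against -0.01 over all genes). In all 13 members rose and 12 fell, where 24.3% of all tested genes rose and 23.7% fell. SEL1L had 531 and 539 CPM in the combination, against 275.3 and 214.7 CPM in DMSO (1.13 ± 0.14, adjusted p = 2.70e-05). SDF2L1 had 16.2 and 18.7 CPM in the combination against 8.28 and 6.04 CPM in DMSO (1.29 ± 0.22, adjusted p = 0.000357). HSPA5 had 1093 and 957 CPM in the combination against 648.2 and 524.7 CPM in DMSO (0.81 ± 0.14, adjusted p = 0.000443). These were the highest levels of each gene among the 8 libraries. DDIT4 also rose, with 607.9 and 553.2 CPM in the combination against 303.7 and 247.4 CPM in DMSO (1.07 ± 0.14, adjusted p = 4.46e-05).

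ATF4 transcript had 77.3 and 84.4 CPM in the combination against 137.4 and 207.9 CPM in DMSO (-1.09 ± 0.19, adjusted p = 0.000318). ATF5 (-3.06 ± 0.30), NUPR1 (-1.35 ± 0.37) and CEBPG (-1.28 ± 0.17) fell with it. XBP1 had 51.2 and 51.9 CPM in the combination against 108.8 and 85.0 CPM in DMSO (-0.91 ± 0.16, adjusted p = 0.000366). ERN1 rose by 0.44 on the log2 scale, with 33.2 and 36.2 CPM in the combination against 22.02 and 29.1 CPM in DMSO. That call was lost with library size only, without the 10 most abundant genes and with DESeq2. It was also lost with no filter, at 1 CPM in 2 libraries, with only the groups compared and at a threshold of 0.01. Of the serine and folate enzymes, PHGDH (-0.05 ± 0.12), SHMT2 (-0.01 ± 0.13), PSPH (-0.06 ± 0.20) and PSAT1 (0.19 ± 0.14) did not pass, and MTHFD2 (-0.44 ± 0.14) and ALDH1L2 (-0.76 ± 0.18) fell. SLC7A1, SLC7A5 and SLC3A2 fell, by 1.05, 0.43 and 0.42 on the log2 scale. Leaving out either combination library, or scaling by library size alone, lost the rises of DNAJB9, DNAJC3, HERPUD1 and PDIA6. In all 8 members rose and 14 fell with that scaling, where 18.2% of all tested genes rose and 31.5% fell. ERN1, MTHFD2, SLC3A2 and SLC7A5 were also lost without either combination library, NUPR1 without replicate 1 and CRELD2 without replicate 2. Without DMSO replicate 1, PSAT1, PDIA4, HYOU1, MANF and PCK2 passed as higher and CRELD2, ERN1 and MTHFD2 were lost. Without DMSO replicate 2, DDIT3 passed as higher, SLC1A5 and VLDLR passed as lower, and PDIA6 was lost.

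Whether the belinostat effect differed between cells with and without AsiDNA was tested as an interaction, the effect with AsiDNA minus that without it. None of the 42 members passed, where 0% of all tested genes passed as higher and 0.00678% as lower, and 19 members and 3203 genes had an unadjusted p under 0.05. DESeq2 called 6 members, all higher: DNAJC3, HSPA5, PDIA4, PHGDH, SHMT2 and SLC1A5. Of all tested genes DESeq2 called 3.23% higher and 0.936% lower. The difference was positive in 34 of 42 members, in 18 of 24 of the ATF4 branch (median 0.46) and in 14 of 14 ATF6 and XBP1 targets (median 0.45), against a median of -0.0007 over all genes. The smallest adjusted p belonged to PHGDH (0.72 ± 0.18, adjusted p = 0.0776). HSPA5 (0.75 ± 0.20) and SHMT2 (0.68 ± 0.18) followed, both with an adjusted p of 0.0853, and then PDIA4 (0.69 ± 0.19, adjusted p = 0.0881). The differences for DDIT3 (-0.93 ± 0.31, adjusted p = 0.122) and ERN1 (-0.59 ± 0.24, adjusted p = 0.177) were negative. Without DMSO replicate 2, 22 members passed as higher and 3 as lower, ATF4, DDIT3 and ERN1, where 20.3% of all genes in that fit passed as higher and 14.4% as lower. Without DMSO replicate 1, 8 passed as higher and 1, DDIT4, as lower, where 4.15% of all genes passed as higher and 2.35% as lower.

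Other genes of the pathway were taken as 3 lists, whose counts are set beside the shares of all tested genes: 29.8% higher and 27.6% lower for belinostat against DMSO, 21.7% and 21.2% for the combination against AsiDNA, and 22% and 21.4% for the combination against belinostat. Of 13 genes for eIF2 kinases, eIF2 and eIF2B with their phosphatase, 6 fell and 0 rose with belinostat against DMSO, among them PPP1CA, a phosphatase catalytic subunit that partners PPP1R15A. PPP1CA had 55.4 and 49.1 CPM with belinostat, against 147.7 and 100.4 CPM in DMSO (-1.24 ± 0.17, adjusted p = 3.11e-05). EIF2AK2, the double-stranded RNA kinase PKR, fell with belinostat in cells without AsiDNA (-0.97 ± 0.13) and with it (-0.73 ± 0.13). EIF2S2, the beta subunit of eIF2, fell likewise (-0.76 ± 0.13 and -0.68 ± 0.13). In the combination against belinostat 6 of the 13 rose and 1 fell, and PPP1CA was higher (1.165 ± 0.167).

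Of 16 other ATF4-responsive genes 13 were tested, and 5 rose and 4 fell with belinostat against DMSO (median 0.03), near the shares of all tested genes. GPT2, a mitochondrial alanine transaminase, had 128.0 and 129.4 CPM with belinostat against 56.3 and 56.6 CPM in DMSO (1.19 ± 0.12, adjusted p = 2.75e-06). MTHFD1L (-1.13 ± 0.13), a mitochondrial folate enzyme, XPOT (-1.15 ± 0.14), a tRNA exporter, and EIF4EBP1 (-1.37 ± 0.18), a translation repressor, fell. Of 30 other ER folding, translocation and degradation genes, 8 rose and 12 fell with belinostat against DMSO (median -0.17), and 17 rose and 2 fell in the combination against belinostat (median 0.44). SYVN1, the ubiquitin ligase HRD1 that works with SEL1L, had 75.7 and 83.5 CPM with belinostat against 31.1 and 40.5 CPM in DMSO (1.15 ± 0.15, adjusted p = 2.58e-05), and was lower in the combination than with belinostat (-0.78 ± 0.15). EDEM2 (0.95 ± 0.13) and OS9 (0.60 ± 0.12), which act in glycoprotein degradation, rose with belinostat against DMSO, and CREB3L2, an ER-anchored transcription factor, fell (-0.77 ± 0.11). The degradation genes did not move together. DERL1 (-0.69 ± 0.14) and DERL2 (-0.47 ± 0.15) fell in this comparison, and EDEM3 (-0.16 ± 0.12) and DERL3 (0.06 ± 0.57) did not pass. For the combination against AsiDNA, the lists gave 0 higher and 3 lower of 13, 3 and 3 of 13, and 11 and 3 of 30 in the same order. The second of these is near the shares of all tested genes.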

How the data were processed

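The deposited values are raw counts of reads per gene, with no normalization recorded. Per the labels' protocols, RNA was extracted with a Roche HiPure kit and made into stranded libraries after Ribo-Zero Gold depletion. Per the submitters' processing notes, cutadapt 1.16, STAR 2.7.0 and featureCounts 1.6.3 (Subread) were used with GRCh38. The sources used here do not give the annotation release or the strand setting.

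Counts of 8 libraries were grouped by their labels. A symbol was found for 58472 of 58884 identifiers. In R 4.3.3, edgeR 4.0.16 filtered genes (filterByExpr, 14741 kept), computed TMM factors and fitted all libraries with 1 coefficient per group (4 residual degrees of freedom, prior 9.56, common dispersion 0.0140). The 5 comparisons and the interaction used the quasi-likelihood F-test with Benjamini-Hochberg adjustment over all tested genes, with calls made below 0.05. Values after ± are standard errors, taken as the absolute log2 fold change over the square root of F. Floors cover counting error only. The steps were tested on simulated data.

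The members and lists were chosen with earlier results of these data known. Named members were 10 fixed ones and, in each role, the 3 and 2 called with the largest changes with belinostat in cells without and with AsiDNA. Other members were named to account for them, and of each further list up to 4 with the smallest adjusted p. ATF3, CEBPB, DERL1, DERL2, DERL3 and EDEM3, and in the other comparisons any member outside the rule, were picked after their values were seen. Exon lengths and overlaps came from GENCODE and promoter windows from RefSeq. Alternatives were RLE factors, library size only, TMM without the 10 most abundant genes, DESeq2 1.42.0, a 2-fold limit, a threshold of 0.01, no filter, a minimum of 1 CPM in 2 libraries, a replicate block, a fit of only the 2 groups compared, and fits without each library.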

Additional observations from a re-analysis of the deposited data

How the results depend on the processing

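No member that passed the test changed direction under any alternative listed. With a 2-fold limit, 2 members rose and 8 fell for belinostat against DMSO, where 17.5% of all tested genes rose and 12.8% fell. For the combination against AsiDNA 2 and 3 did, where 9.92% and 8.89% of all genes did. For the combination against belinostat 2 and 0 did, beside 4.05% and 11.5% of all genes. For the combination against DMSO 3 and 5 did, beside 10.6% and 11.4%. At an adjusted p under 0.01, 8 fell for the combination against AsiDNA, where 14.9% of all genes did. With only the groups compared, 3 rose for belinostat against DMSO, where 21.8% of the genes in that fit did. With scaling by library size only, 8 rose for the combination against DMSO, where 18.2% of all genes did. The median over all genes moved by -0.19 there, by -0.137 for belinostat against DMSO and by -0.134 for the combination against AsiDNA. Without a filter on low counts, 2 fell for AsiDNA against DMSO, where 1.55% of the genes in that fit did. For the interaction, 13 passed as higher without a filter, where 3.83% of all genes did, and 6 with DESeq2, where 3.23% did. At 1 CPM in 2 libraries and without the 10 most abundant genes 4 each passed as higher, beside 2.04% and 2.32% of all genes.

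Leaving out 1 library at a time gave 3 to 10 rises and 20 to 26 falls for belinostat against DMSO, and 6 to 10 and 7 to 8 for the combination against AsiDNA. It gave 0 to 17 and 0 to 4 for AsiDNA against DMSO, 17 to 21 and 1 to 2 for the combination against belinostat, 8 to 17 and 8 to 14 for the combination against DMSO, and 0 to 22 and 0 to 3 for the interaction. Such fits have fewer samples, and the lone library of a group is assumed to vary like the others. The shares over all genes moved with these fits as well, so the counts are not a result about the members alone. What sets the DMSO libraries apart was not tested.

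The deviations of same-numbered libraries had correlations of -0.37 to 0.234 between groups. With 2 libraries a group, a difference particular to a group can mask a shared deviation. These correlations therefore cannot decide whether the numbers pair the samples. With a replicate block, 30 members were called for belinostat against DMSO, where 29.6% of all tested genes rose and 27.2% fell. Without the block it was 27, and ATF3, ATF4 and HSPA5 were added. For the combination against AsiDNA 25 were called, where 21.4% of all genes rose and 20.9% fell. For the combination against belinostat 28 were called, beside 21.7% and 21.4%, and for the combination against DMSO 24, beside 23.9% and 23.3%. For AsiDNA against DMSO 0 were called, beside 0.00678% and 0.0271%. For the interaction 0 were called, beside 0.0882% higher and 0.0407% lower. The low members CHAC1, ASNS and PCK2, with standard errors of 0.38 or more on the log2 scale, passed only under some alternatives.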
